A study of Homo sapiens with 15 samples.

Results

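The S100 genes encode small calcium-binding proteins that are studied in epithelia and in tumors. This report describes 10 of them, S100A2, S100A4, S100A6, S100A7, S100A8, S100A9, S100A10, S100A11, S100A14 and S100P, chosen by symbol among the 61552 Ensembl genes of the counts table. All 10 were found and all 10 passed the filter on low counts in every fit. RNA came from MDA-MB-468, an established human breast cancer cell line, in 15 libraries that form 5 groups of 3 replicates. In the drug experiment, cells were serum starved for 12 h, given 10 ng/mL EGF and left without a drug (EGF), or also given 10 μM cSNX1.3 (cSNX) or 15 μM erlotinib (ERL) for 12 h. cSNX1.3 is a peptide that blocks the interaction of EGFR with Sorting Nexin 1, and erlotinib inhibits the EGFR kinase. In the line experiment, both groups carried an IPTG-inducible lentiviral shRNA against endogenous EGFR, which targets its 3′ untranslated end. They then received GFP-tagged EGFR, either wildtype (shEGFR-WT) or mutated (shEGFR-NLS). In the mutant, 2 arginines and 1 lysine of the nuclear localization sequence (NLS) were changed to aspartic acid. After this, both groups were treated with EGF, at a dose not given in the sources used here. The comparisons ask how S100 RNA levels differed when the EGFR kinase was inhibited, when EGFR transport to the nucleus was targeted by a peptide, and when it was targeted by mutation.

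An S100 protein usually forms a dimer whose subunits each hold a pair of EF-hand calcium sites, and calcium opens a surface that binds target proteins. Inside cells these targets include annexins, cytoskeletal proteins and kinases. Several family members also act outside cells, where S100A8 and S100A9 pair as calprotectin, an antimicrobial protein that binds zinc and manganese and signals through TLR4 and the receptor AGER. Most S100 genes lie together on the long arm of chromosome 1, beside genes of the skin barrier.

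On GRCh38 (GENCODE 44), 9 of the 10 genes lay on chromosome 1 within 1634 kb and S100P lay on chromosome 4. S100A10 (chr1:151982915-151993859, minus strand) and S100A11 (chr1:152032506-152047907, minus strand) were 39 kb apart at one end. The other 7 were S100A9 (chr1:153357854-153361023, plus strand), S100A8 (chr1:153390032-153391073, minus strand), S100A7 (chr1:153457744-153460651, minus strand), S100A6 (chr1:153534599-153536244, minus strand), S100A4 (chr1:153543613-153550136, minus strand), S100A2 (chr1:153561108-153567890, minus strand) and S100A14 (chr1:153614255-153616986, minus strand). S100P is at chr4:6693878-6697170 on the plus strand.

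The 250 bases upstream of the start site are shown for S100A2, S100A10, S100A11 and S100P, the 4 genes with the largest differences in the drug comparisons. They are RefSeq promoters (GRCh38.p14), matched for all 10 genes at the GENCODE canonical start site, and are written 5′ to 3′ on the strand of the gene. Capitals mark matches on either strand to 3 short motifs, the AP-1 site TGANTCA, the TATA box TATAAA and the GC box GGGCGG, and no match overlapped one of another motif in these 4 sequences.
S100A2 (chr1:153565845-153566094): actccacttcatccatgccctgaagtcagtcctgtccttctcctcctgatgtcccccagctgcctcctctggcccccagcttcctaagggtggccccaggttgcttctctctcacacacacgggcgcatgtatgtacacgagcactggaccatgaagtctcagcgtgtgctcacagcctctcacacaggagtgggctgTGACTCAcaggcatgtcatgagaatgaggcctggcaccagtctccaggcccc
S100A10 (chr1:151993860-151994109): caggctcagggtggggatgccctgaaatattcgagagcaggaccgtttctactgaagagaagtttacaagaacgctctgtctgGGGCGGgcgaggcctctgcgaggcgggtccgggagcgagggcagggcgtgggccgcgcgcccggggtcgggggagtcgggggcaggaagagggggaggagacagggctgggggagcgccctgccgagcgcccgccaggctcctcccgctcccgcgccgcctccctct
S100A11 (chr1:152037005-152037254): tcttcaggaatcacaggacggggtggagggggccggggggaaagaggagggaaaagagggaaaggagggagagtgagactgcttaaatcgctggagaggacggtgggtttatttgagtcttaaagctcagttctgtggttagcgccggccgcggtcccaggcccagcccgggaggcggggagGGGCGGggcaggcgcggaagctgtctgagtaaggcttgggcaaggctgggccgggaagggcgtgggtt
S100P (chr4:6693628-6693877): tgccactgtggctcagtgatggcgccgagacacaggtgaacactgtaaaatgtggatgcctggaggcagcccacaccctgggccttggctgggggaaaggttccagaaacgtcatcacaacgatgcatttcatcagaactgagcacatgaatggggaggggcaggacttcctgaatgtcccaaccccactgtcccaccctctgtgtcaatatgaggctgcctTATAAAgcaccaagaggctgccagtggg
S100A2 held the only AP-1 match among the 10 genes, from -52 to -46 relative to its start site, beside 6.59% of 34788 distinct promoters of the same length. A TATA box was found in 5 of the 10 genes (S100A4, S100A7, S100A8, S100A9 and S100P), beside 10.8% of all promoters. A GC box was found in 4 genes (S100A6, S100A9, S100A10 and S100A11), beside 42.6% of all promoters. S100A14 held none of the 3. These matches describe the letters in this window and say nothing of binding by a factor.

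Library totals ranged from 22915676 to 35900649 counts, and the 10 genes took 0.552% to 0.621% of all counts with EGF, 0.586% to 0.639% with cSNX, 0.462% to 0.473% with ERL, 1.01% to 1.12% in shEGFR-WT and 0.792% to 0.883% in shEGFR-NLS. The least counted gene, S100A2, still had 550 to 2906 counts in a library. EGFR itself was at 4316 to 6498 CPM (counts relative to library size, scaled across the 15 libraries with the TMM method) in the drug experiment and 1146 to 1745 CPM in the lines, where the counts pool endogenous and introduced EGFR. All 7 epithelial markers checked were expressed. Of 10 leukocyte markers, whose levels summed to 35.3 to 67.1 CPM over the libraries, 7 had at most 7 counts in any library, among them PTPRC, LYZ and TYROBP, and FCN1 and MS4A1 were at 0 throughout. CD14, CSF1R and ITGAM were detected. Nothing in the labels says that replicates were separate cultures, so p-values measure only the spread between these samples, and in bulk RNA fewer cells that express a gene and less RNA per cell cannot be told apart.

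Replicates differed in how short and long genes were counted. All 10 S100 genes have a longest transcript of 442 to 1218 bases. In all 15 libraries the mean deviation of the 10 genes from their group went the same way as the excess of short genes (under 1000 bases) over long genes (5000 bases or more). The S100 genes stood highest in EGF replicate 2, at 0.19 on the log2 scale where the short-gene excess was 0.14, and lowest in shEGFR-NLS replicate 2, at -0.15 where it was -0.07. The excess itself was highest in ERL replicate 1 (0.15) and lowest in ERL replicate 2 (-0.12), where the S100 genes were at 0.07 and -0.05. Between groups the median log2 difference of short genes was small, from -0.06 to 0.05. The part of this in the results was not tested beyond the fits with length and GC offsets and without each library, which are given where a call changed.

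Scaled to CPM per kb of exon, S100A9 was the highest of the 10 genes in every group and S100A2 the lowest. With EGF the level was 2375 ± 356 CPM per kb for S100A9 (SD, n = 3) and 1276 ± 161 for S100A7. S100A6 (1036 ± 89.1), S100A11 (939 ± 82.8) and S100A14 (887 ± 92.0) followed, and each overlapped its neighbor in this order, as S100A7 and S100A6 did. S100A10 (610 ± 41.0) stood apart from both sides. S100P (299 ± 52.1), S100A4 (253 ± 22.1) and S100A8 (243 ± 42.2) overlapped again, and S100A2 (37.0 ± 4.84) was apart below them. The order changed most for S100A8, which was ninth in all drug groups and the third in both lines, at 1654 ± 185 CPM per kb in shEGFR-WT. This order and its gaps hold for exon length only. Scaled by the longest transcript, the EGF means were 919 for S100A10 and 930 for S100A14, and S100A6 (1495) was above S100A7 (1403).

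**Figure D1:**
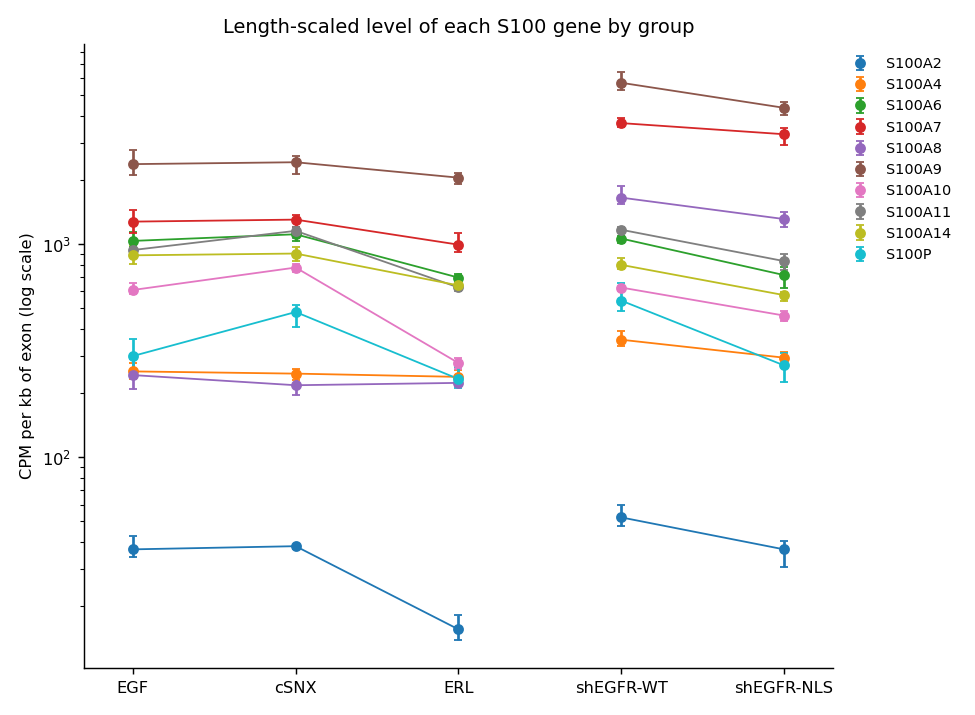
Mean level of each of the 10 S100 genes in CPM per kb of exon (log axis) in the 5 groups, with bars from the lowest to the highest of 3 replicates and lines joining groups of the same experiment. S100A9 is at the top and S100A2 at the bottom of every group, and S100A8 lies near 243 with EGF but at 1654 in shEGFR-WT.

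With erlotinib, 7 of the 10 genes fell and none rose. S100A2 and S100A10 were lowered by more than 2-fold (2.35-fold and 2.18-fold), while S100A4, S100A8 and S100A9 did not pass the test. In this comparison 44.0% of the 15738 genes tested were called at an adjusted p under 0.05 (edgeR quasi-likelihood test, Benjamini-Hochberg), 21.2% lower and 22.8% higher. The median log2 fold change of the 10 genes was -0.40, beside 0.01 for all genes tested.

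S100A10, the subunit that joins annexin A2 in a tetramer at the plasma membrane, was at 594, 665 and 592 CPM in the 3 EGF libraries. It was at 296, 282 and 263 CPM with ERL. All ERL libraries were below all EGF libraries, with a log2 fold change of -1.13 (SE 0.092, adjusted p = 1.17e-07). S100A11, which binds annexin A1, was at 597, 668 and 563 CPM with EGF and 399, 393 and 428 CPM with ERL. The groups did not overlap here either, and S100A11 fell by 0.57 on the log2 scale (SE 0.096, adjusted p = 1.77e-04). Processed pseudogenes of S100A11 are annotated, so some of its reads may have been counted elsewhere or not at all. S100A6, or calcyclin, which binds the ubiquitin ligase adaptor CACYBP, was at 976, 1104 and 939 CPM with EGF and 705, 655 and 670 CPM with ERL, a log2 fold change of -0.56 (SE 0.099, adjusted p = 2.74e-04). Every ERL library was thus below every EGF library for S100A6, S100A10 and S100A11.

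S100A2, a mainly nuclear member described as a tumor suppressor in epithelia, was at 52.6, 65.8 and 53.1 CPM with EGF. With ERL it was at 28.2, 22.5 and 21.6 CPM. The groups were far apart, with a log2 fold change of -1.23 (SE 0.112, adjusted p = 3.54e-07), the largest among the 10 genes in this comparison. S100A14, an epithelial member found at cell borders, was at 1104, 1261 and 1031 CPM with EGF and 870, 782 and 802 CPM with ERL. It fell by 0.46 on the log2 scale (SE 0.103, adjusted p = 0.00196), again without overlap.

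Overlap was seen for the other 2 called genes. S100A7, or psoriasin, a secreted antimicrobial protein of inflamed skin, was at 611, 702 and 546 CPM with EGF and 446, 454 and 551 CPM with ERL. Its log2 fold change was -0.35 (SE 0.112, adjusted p = 0.0196), and ERL replicate 3 lay above EGF replicate 3. Without EGF replicate 2, ERL replicate 1 or ERL replicate 2 the adjusted p of S100A7 was 0.0683, 0.0773 and 0.0806, and its log2 fold change -0.27, -0.29 and -0.30. S100P, a secreted member that binds ezrin and the receptor AGER, was at 132, 168 and 122 CPM with EGF and 125, 100 and 104 CPM with ERL. S100P had a log2 fold change of -0.35 (SE 0.124, adjusted p = 0.0328), and ERL replicate 1 lay inside the EGF range. Without EGF replicate 2, ERL replicate 2 or ERL replicate 3 its adjusted p was 0.149, 0.132 and 0.108, with log2 fold changes of -0.21, -0.28 and -0.31, and in the fit of all 15 libraries it was 0.0569.

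The calprotectin genes and S100A4 gave no call. S100A8 was at 206, 258 and 185 CPM with EGF and 199, 193 and 205 CPM with ERL. S100A9 was at 1284, 1592 and 1206 CPM with EGF and 1189, 1237 and 1102 CPM with ERL. Both overlapped between groups, with log2 fold changes of -0.11 (95% interval -0.34 to 0.12) and -0.20 (-0.45 to 0.05). S100A4, a partner of nonmuscle myosin known from metastasis, was at 235, 262 and 221 CPM with EGF and 242, 208 and 226 CPM with ERL. Its log2 fold change was -0.07, with an interval of -0.27 to 0.12.

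**Figure D2:**
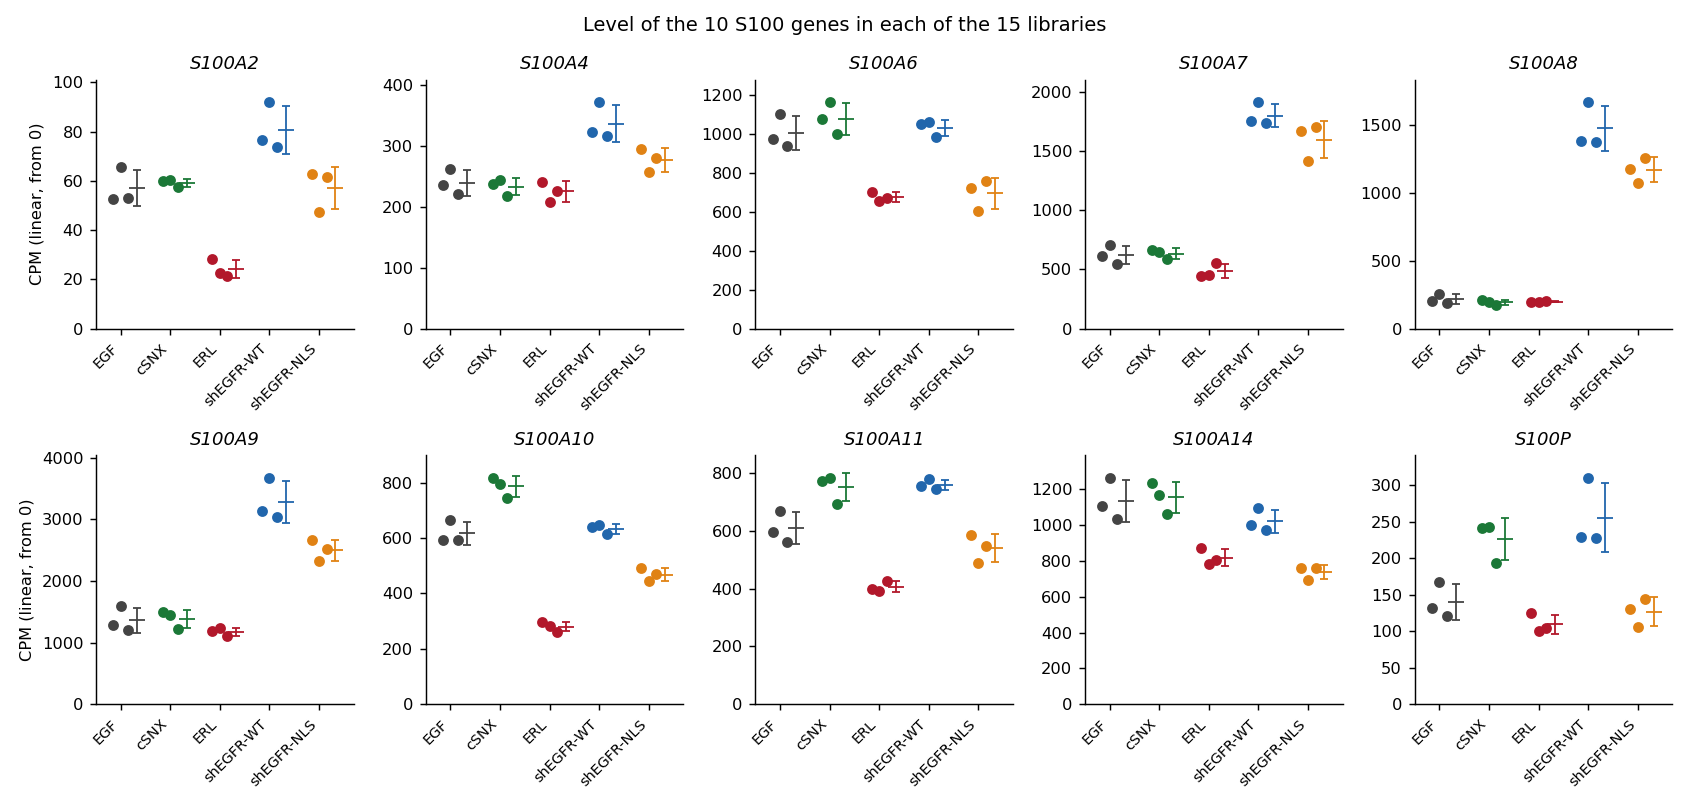
Level of the 10 S100 genes in CPM (linear axes from 0, a separate scale for each gene) in the 15 libraries. Points are libraries in replicate order and the dash with bars beside them is the mean ± SD of 3. With ERL all libraries of S100A2, S100A6, S100A10, S100A11 and S100A14 lie below all EGF libraries, and S100A7, S100A8 and S100A9 are higher in both lines than in the 9 drug libraries.

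With cSNX1.3, 2 of the 10 genes rose and none fell, so that most of the family did not pass the test. The background in this comparison was 6.07% of genes called, 3.38% higher and 2.69% lower, and the median log2 fold change of the 10 genes was 0.04 beside 0.00 for all genes. S100P was at 242, 244 and 193 CPM with cSNX, all above the EGF libraries given above, and rose 1.61-fold. Its log2 fold change was 0.69 (SE 0.123, adjusted p = 0.00237), and it was called in every fit without a library, with an adjusted p of at most 0.0207 over the alternatives. S100A10 was at 817, 796 and 746 CPM with cSNX, also above all EGF libraries, with a log2 fold change of 0.35 (SE 0.091, adjusted p = 0.0285). This call was lost without cSNX replicate 1, cSNX replicate 2, EGF replicate 1 or EGF replicate 3 (adjusted p = 0.0595, 0.128, 0.152 and 0.131), although the log2 fold change stayed between 0.33 and 0.40 in the fits without a library.

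S100A11 had the third largest difference. It was at 773, 782 and 694 CPM with cSNX, and again no cSNX library was as low as an EGF library. The log2 fold change was 0.30 (SE 0.095), and the adjusted p of S100A11 was 0.0754 in the fit of the 9 libraries, 0.0418 in that of all 15, 0.0158 with DESeq2, 0.021 with length and GC offsets and 0.0464 without EGF replicate 2. The groups overlapped for the other 7 genes. S100A2 was at 59.9, 60.2 and 57.3 CPM with cSNX, within the EGF range, for a log2 difference of 0.05 (95% interval -0.18 to 0.28). S100A6 was at 1077, 1164 and 1000 CPM, S100A14 at 1233, 1169 and 1060 CPM and S100A7 at 667, 650 and 584 CPM. Their log2 differences were 0.11 (-0.10 to 0.32), 0.03 (-0.19 to 0.25) and 0.04 (-0.20 to 0.27). S100A4 was at 239, 245 and 218 CPM (-0.03, interval -0.23 to 0.16), S100A8 at 212, 195 and 175 CPM (-0.15, interval -0.38 to 0.08) and S100A9 at 1492, 1451 and 1223 CPM (0.03, interval -0.21 to 0.28).

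The drug comparisons share the EGF libraries, so the 2 treatments were also compared with each other. Between cSNX and ERL, 7 of the 10 genes were higher with cSNX and none was lower, beside 56.1% of all genes called, 27.6% higher and 28.5% lower. S100A10 differed most, with a log2 difference of 1.48 (SE 0.093, adjusted p = 2.36e-09), followed by S100A2 at 1.29 (SE 0.112, adjusted p = 1.03e-07) and S100P at 1.04 (SE 0.124, adjusted p = 3.70e-06). All 7 genes called had every cSNX library above every ERL library, though the share of all genes set apart in this way was not counted. S100A11 (0.88), S100A6 (0.67), S100A14 (0.49) and S100A7 (0.38) were also called. S100A4 (0.04, 95% interval -0.15 to 0.24), S100A8 (-0.04, interval -0.28 to 0.19) and S100A9 (0.23, interval -0.02 to 0.48) were not, though S100A9 was called without cSNX replicate 3 (adjusted p = 0.04) and with length and GC offsets (0.0293).

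**Figure D3:**
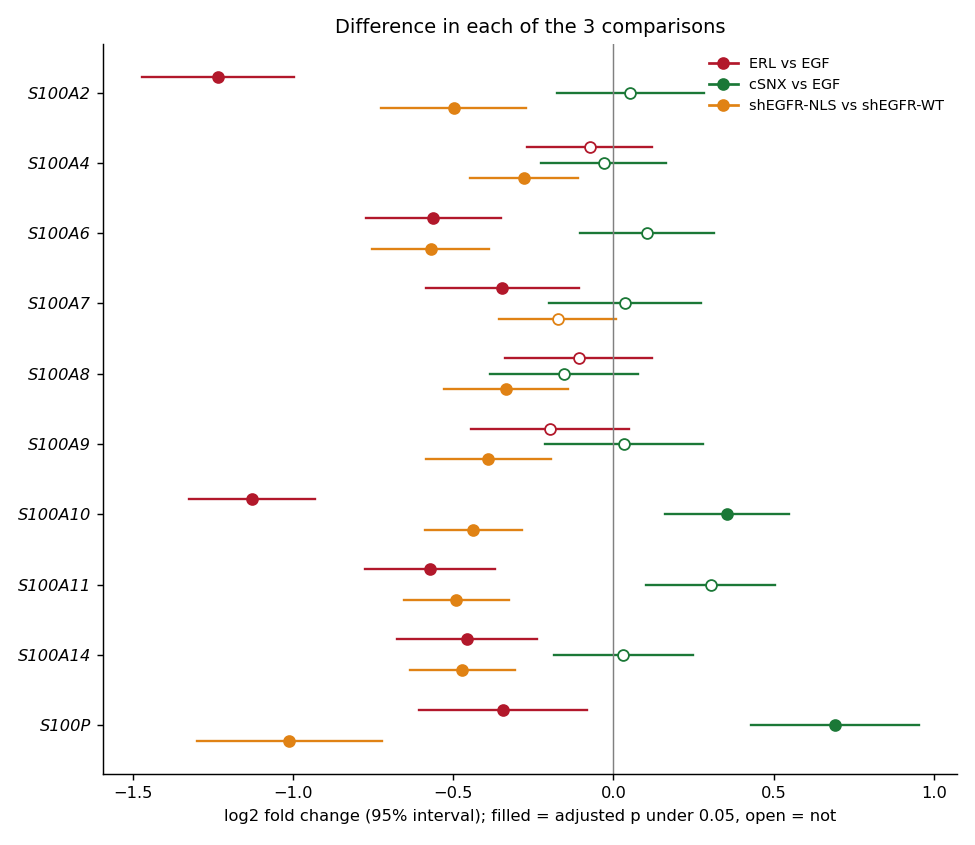
Log2 fold change of the 10 S100 genes in the 3 comparisons, with 95% intervals from the edgeR fit. Filled points had an adjusted p under 0.05 and open points did not. The ERL and shEGFR-NLS points all lie below 0, and with cSNX only S100A10 and S100P are filled, both above 0.

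Between the lines, 9 of the 10 genes were lower in shEGFR-NLS than in shEGFR-WT and none was higher. Here 41.4% of 15805 genes were called, 21.0% lower and 20.4% higher, and the median log2 fold change of the 10 genes was -0.45 beside 0.01 for all genes. For all 10 genes every shEGFR-NLS library was below every shEGFR-WT library. The share of all genes tested whose groups were set apart in this way was not counted in any comparison. EGFR was also different between the lines, at 1423, 1146 and 1449 CPM in shEGFR-WT and 1687, 1745 and 1745 CPM in shEGFR-NLS (log2 fold change 0.37, adjusted p = 0.00367), and its part in the S100 differences was not tested.

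S100P changed most. It was at 229, 310 and 229 CPM in shEGFR-WT and 131, 106 and 145 CPM in shEGFR-NLS, a 2.02-fold difference (log2 fold change -1.01, SE 0.132, adjusted p = 8.38e-05). The annexin-binding genes were both lower. S100A10 was at 641, 646 and 613 CPM in shEGFR-WT and 491, 444 and 470 CPM in shEGFR-NLS, and fell by 0.44 on the log2 scale (SE 0.071, adjusted p = 1.27e-04). S100A11 was at 755, 779 and 743 CPM in shEGFR-WT and 585, 489 and 548 CPM in shEGFR-NLS, and fell by 0.49 (SE 0.078, adjusted p = 9.97e-05). S100A6 was at 1051, 1062 and 985 CPM in shEGFR-WT and 723, 605 and 759 CPM in shEGFR-NLS, with a log2 fold change of -0.57 (SE 0.086, adjusted p = 5.97e-05).

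S100A2 was at 76.7, 91.9 and 73.6 CPM in shEGFR-WT and 62.8, 47.3 and 61.4 CPM in shEGFR-NLS. It fell by 0.50 on the log2 scale (SE 0.106, adjusted p = 0.00144). S100A14, at 999, 1094 and 972 CPM against 758, 691 and 760 CPM, fell by 0.47 (SE 0.077, adjusted p = 1.35e-04). For S100A14 shEGFR-NLS was the lowest of the 5 groups, below ERL without overlap.

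The calprotectin genes and S100A7 followed. S100A9 was at 3131, 3669 and 3035 CPM in shEGFR-WT and 2660, 2320 and 2524 CPM in shEGFR-NLS, with a log2 fold change of -0.39 (SE 0.092, adjusted p = 0.00277). S100A8 was at 1381, 1664 and 1376 CPM in shEGFR-WT and 1177, 1072 and 1257 CPM in shEGFR-NLS, with a log2 fold change of -0.34 (SE 0.091, adjusted p = 0.00742). Both calprotectin genes were thus lower in shEGFR-NLS, and neither passed the test with a drug. The difference between the NLS and cSNX effects, given below, was called for neither in the main fit. That between the NLS and ERL effects was not tested. S100A7 was at 1753, 1910 and 1732 CPM in shEGFR-WT and 1669, 1413 and 1701 CPM in shEGFR-NLS, and its log2 fold change of -0.17 (95% interval -0.36 to 0.01, adjusted p = 0.119) was the only one not called. S100A4 was at 323, 372 and 316 CPM in shEGFR-WT and 296, 257 and 280 CPM in shEGFR-NLS. Its log2 fold change was -0.28 (SE 0.080, adjusted p = 0.0102), and without shEGFR-NLS replicate 2 it was -0.23 with an adjusted p of 0.0534.

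S100A7, S100A8 and S100A9, singled out here after their values were seen, were higher in all line libraries than in all drug libraries. The share of all genes set apart in this way was not counted. For shEGFR-WT alone, 5 of the 10 genes, S100A2 and S100A4 among them, had every library above every drug library. Mean CPM in shEGFR-WT was 6.81 times that of the EGF group for S100A8, 2.90 times for S100A7 and 2.41 times for S100A9, against 0.902 to 1.82 times for the other 7 genes. In shEGFR-NLS it was 5.40, 2.57 and 1.84 times that of EGF for these 3 genes, against 0.651 to 1.16 times for the other 7. Outside the 10 genes, S100A12 and S100A1 were also higher in all line libraries than in all drug libraries. S100A12 was at 12.7 (shEGFR-WT) and 8.04 (shEGFR-NLS) times EGF and S100A1 at 6.17 and 5.83 times. Both had few counts with EGF (6 to 11 and 3 to 13). Read counts of S100A9 were 5.37 to 7.45 times those of S100A8 in the drug libraries and 2.01 to 2.27 times in the line libraries. The lines differ from the drug groups in vector, selection, EGFR source and culture, and these and the experiment cannot be told apart, so no test was made. CD14, a monocyte marker, was at 13.8 to 18.8 CPM with EGF and was higher in every line library, at 25.6 to 36.8 CPM in shEGFR-WT (1.83 times EGF on average) and 37.4 to 41.9 CPM in shEGFR-NLS (2.45 times). It was also at 37.9 to 41.7 CPM with ERL, where S100A8 and S100A9 were not called. Of the other detected leukocyte markers, CSF1R was lower in the lines, at 0.888 times EGF in shEGFR-WT and 0.764 times in shEGFR-NLS. ITGAM was at 1.41 and 1.08 times EGF. The 10 leukocyte markers summed to 43.2 to 48.1 CPM with EGF, 58.1 to 66.1 CPM with ERL, 52.3 to 64.2 CPM in shEGFR-WT and 60.0 to 67.1 CPM in shEGFR-NLS, while PTPRC was at or below 0.216 CPM in every library, and the part of CD14 in these differences was not tested.

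The NLS effect and the cSNX effect differed for most of these S100 genes. The NLS effect is the difference between 2 lines, so the mutation and other differences between the lines cannot be told apart. The cSNX effect is against EGF alone, as no control peptide was among these libraries. In the fit of all 15 libraries the difference between the 2 effects (shEGFR-NLS against shEGFR-WT, minus cSNX against EGF) was below 0 and called for 6 of the 10 genes and above 0 for none. The background was 23.1% of 16524 genes called, 11.3% higher and 11.8% lower. S100P, which rose with the peptide and was lower in shEGFR-NLS than in shEGFR-WT, had a difference of -1.70 (SE 0.209, adjusted p = 7.93e-06). S100A11 (-0.79, SE 0.127, adjusted p = 8.28e-05) and S100A10 (-0.79, SE 0.117, adjusted p = 3.02e-05) came next, then S100A6 (-0.67), S100A2 (-0.55) and S100A14 (-0.50). The call for S100A2 was lost without EGF replicate 1, EGF replicate 3, shEGFR-NLS replicate 2 or shEGFR-WT replicate 2 (adjusted p = 0.0659, 0.0584, 0.07 and 0.0686). S100A9 (-0.42, adjusted p = 0.0664) was not called here but was with DESeq2 (0.0304), without the filter on low counts (0.0193), with length and GC offsets (0.0085), without cSNX replicate 3 (0.0301) and without EGF replicate 2 (0.00938). S100A4 (-0.24, interval -0.51 to 0.02) was called with length and GC offsets (adjusted p = 0.0109). S100A7 (-0.21, 95% interval -0.53 to 0.12) and S100A8 (-0.18, interval -0.51 to 0.16) were not called.

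Over the 5 groups, 7 of the 10 genes were highest on average in shEGFR-WT and 3 (S100A6, S100A10 and S100A14) in cSNX, and 8 were lowest in ERL. Neighbors in this order often overlapped. For S100A10 the order was cSNX, shEGFR-WT, EGF, shEGFR-NLS and ERL, and only shEGFR-WT and EGF overlapped. For S100P it was shEGFR-WT, cSNX, EGF, shEGFR-NLS and ERL, with overlap between shEGFR-WT and cSNX and among the last 3. For S100A2, cSNX, shEGFR-NLS and EGF overlapped between shEGFR-WT above and ERL below.

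The genes that bind S100 proteins were read from a list of 13 intracellular partners, of which 12 were tested. With ERL 5 fell (ANXA1, ANXA2, CACYBP, MYH9 and EZR) and none rose, a share of 41.7% beside the background of 44.0%. ANXA2, the annexin of the S100A10 tetramer, was at 2694, 3298 and 2614 CPM with EGF and 1626, 1631 and 1603 CPM with ERL (log2 fold change -0.81, SE 0.113, adjusted p = 3.11e-05). ANXA1, the annexin bound by S100A11, was at 885, 1047 and 885 CPM with EGF and 320, 343 and 328 CPM with ERL (-1.50, SE 0.100, adjusted p = 1.21e-08). Both annexins were thus lower with ERL, as were S100A10 and S100A11. The other 7 partners tested were not called, among them AHNAK (0.173), ANXA6 (0.205) and ANXA11 (-0.025). With cSNX ANXA2 (0.34, adjusted p = 0.0902) and ANXA1 (0.30, adjusted p = 0.0889) were not called, and AHNAK, a scaffold bound by the S100A10 complex, was the only partner to rise (0.50, adjusted p = 0.00947), 8.33% beside 6.07%. In shEGFR-NLS 7 partners were lower and 1, MYH9, the heavy chain of nonmuscle myosin bound by S100A4, was higher (0.30, adjusted p = 0.0326), a share of 66.7% called beside 41.4%. ANXA1 and ANXA2 fell by 0.76 each on the log2 scale there (adjusted p = 1.01e-06 and 3.60e-06).

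**Figure D4:**
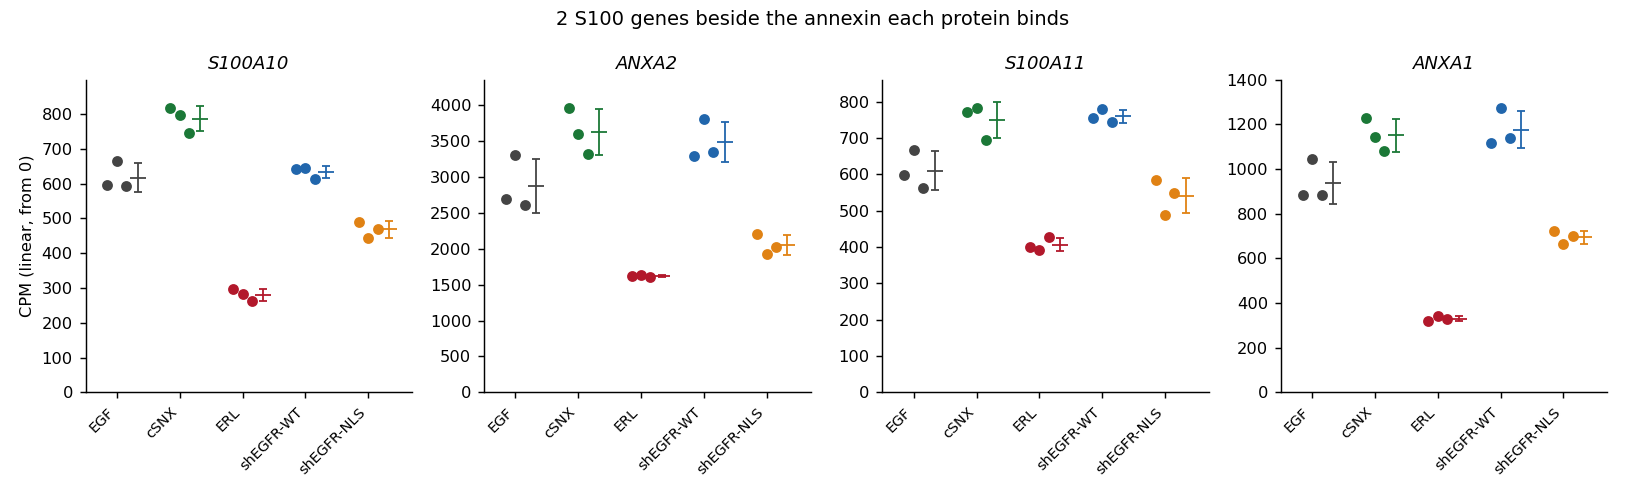
Level of S100A10 and its partner ANXA2, and of S100A11 and its partner ANXA1, in CPM (linear axes from 0, a separate scale for each gene) in the 15 libraries, with the mean ± SD of 3 beside the points. All 4 genes are lowest with ERL and are lower in shEGFR-NLS than in shEGFR-WT.

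Of 5 receptors of secreted S100 proteins, 4 were tested in the drug experiment and all 5 between the lines. With ERL 1, MCAM, fell (log2 fold change -0.44, adjusted p = 0.0178), 25.0% of those tested beside 44.0% of all genes, and with cSNX none was called (edgeR), beside 6.07%, and 1 (MCAM) had an unadjusted p under 0.05. Between the lines 3 of the 5 were called, 60.0% beside 41.4%. MCAM was at 6.14 to 7.66 CPM in shEGFR-WT and 14.1 to 15.1 CPM in shEGFR-NLS, and was 2.14-fold higher there (adjusted p = 5.98e-07). NPTN was lower (-0.22, adjusted p = 0.0222). TLR4 was also called lower (adjusted p = 7.87e-04), at 0.463, 0.506 and 0.498 CPM in shEGFR-WT and 0.115, 0 and 0 CPM in shEGFR-NLS, and it was at 0 in 8 of the 9 drug libraries. AGER was at 0.691 to 2.44 CPM over all libraries and BSG, which binds S100A9, at 457 to 861 CPM, and neither was called in these 3 comparisons. Of 10 epithelial antimicrobial genes, 6 were tested in the drug experiment. With ERL 5 of them fell and 1 (SLPI) rose, beside 44.0% of all genes called, and with cSNX 2 rose, 33.3% beside 6.07%. These 2, SERPINB3 and SERPINB4, fell with ERL (log2 fold change -3.14 and -2.80) and rose with cSNX (2.28 and 2.23), while S100A8 and S100A9 passed the test in neither. Of 5 tested between the lines, 4 were lower in shEGFR-NLS and 1 (PI3) was higher, beside 41.4% of all genes called. Of the 7 epithelial markers, 4 (KRT8, KRT18, KRT5 and KRT17) fell with ERL by 1.14 to 1.49 on the log2 scale, CDH1 rose (0.47, adjusted p = 2.39e-04) and EPCAM and KRT19 were not called, a share of 71.4% called beside 44.0% of all genes. With cSNX 1 of the 7 (KRT18) rose, 14.3% beside 6.07%, and in shEGFR-NLS 6 were lower and EPCAM was not called, 85.7% beside 41.4%.

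Of 11 further S100 genes, 6 were tested in the drug experiment and 7 between the lines, while S100B and S100G were at 0 in every library. S100A16, a widely expressed member, had log2 fold changes of -0.82 with ERL (adjusted p = 7.28e-05), -0.01 with cSNX (adjusted p = 0.989) and -0.67 in shEGFR-NLS (adjusted p = 2.08e-05). With ERL 3 of the 6 fell (S100A5, S100A13 and S100A16) and 1 (S100A7A) rose, 66.7% called beside 44.0%, with cSNX 1 (S100A7A) fell, 16.7% beside 6.07%, and in shEGFR-NLS 4 of the 7 were lower (the same 3 and S100A12) and 2 were higher (S100A3 and S100A7A), 85.7% beside 41.4%. S100A3 overlaps S100A4 in position, so reads in the stretch they share are uncertain, as are those of S100A13, which overlaps S100A1 on the opposite strand. S100A7A, a near-copy of S100A7, went the other way with ERL. It was at 19.7, 16.3 and 18.1 CPM with EGF, 7.92, 7.01 and 7.95 CPM with cSNX and 53.0, 70.1 and 64.1 CPM with ERL. No groups overlapped, and S100A7A rose with ERL (log2 fold change 1.80, SE 0.119, adjusted p = 1.09e-08), fell with cSNX (-1.24, SE 0.129, adjusted p = 2.84e-05) and was higher in shEGFR-NLS (0.91, SE 0.077, adjusted p = 1.09e-07). Read counts of S100A7 were 30.3 to 43.0 times those of S100A7A with EGF, 73.4 to 92.7 times with cSNX and 6.48 to 8.60 times with ERL. How the counting treated reads common to such copies is not known, so both genes are uncertain.

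**Figure D5:**
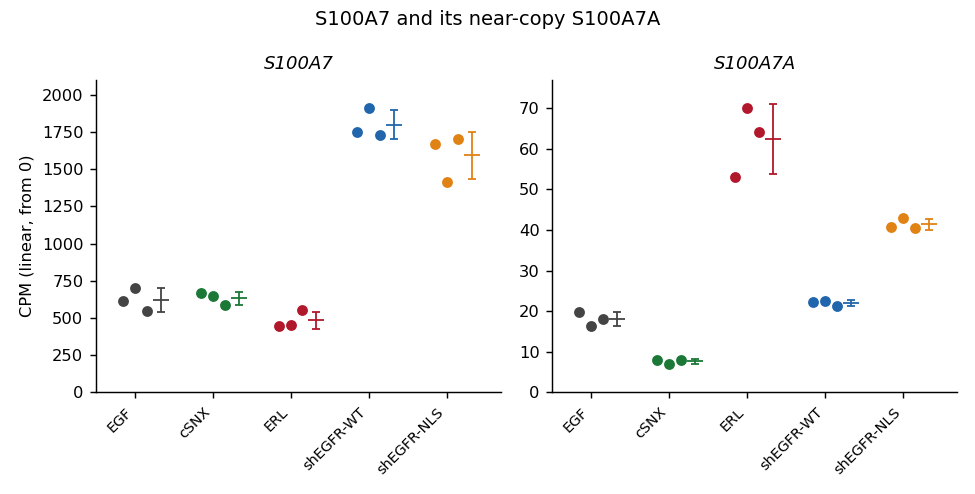
Level of S100A7 and of its near-copy S100A7A in CPM (linear axes from 0, a separate scale for each gene) in the 15 libraries, with the mean ± SD of 3 beside the points. S100A7 is lower with ERL than with EGF on average and high in both lines, whereas S100A7A is highest with ERL, at 53.0 to 70.1 CPM, and lowest with cSNX, at 7.01 to 7.95 CPM.

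The upstream sequences of this pair are shown because the genes were called in opposite directions with ERL. For S100A7 the groups overlapped, and its call was lost in 3 of 6 fits without a library. The sequences are 250 bases each from RefSeq (GRCh38.p14), 5′ to 3′ on the strand of the gene, and capitals here mark the positions at which they differ.
S100A7 (chr1:153460652-153460901): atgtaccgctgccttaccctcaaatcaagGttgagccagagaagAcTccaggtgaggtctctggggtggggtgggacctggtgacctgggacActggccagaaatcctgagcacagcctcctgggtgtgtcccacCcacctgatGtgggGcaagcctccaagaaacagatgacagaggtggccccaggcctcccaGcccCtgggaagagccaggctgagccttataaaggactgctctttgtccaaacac
S100A7A (chr1:153416270-153416519): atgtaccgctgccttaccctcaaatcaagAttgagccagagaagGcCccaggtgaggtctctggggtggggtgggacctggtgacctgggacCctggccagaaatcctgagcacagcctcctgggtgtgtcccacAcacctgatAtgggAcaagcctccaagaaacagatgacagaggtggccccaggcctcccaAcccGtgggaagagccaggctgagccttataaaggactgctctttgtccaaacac
They are identical at 241 of 250 positions (96.4%), and both hold the TATA box from -28 to -23 relative to the start site and none of the other 2 motifs.

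Between the outermost S100 genes of chromosome 1 lie 72 genes outside the family, of which few were expressed. With ERL 10 were tested, 3 higher and 7 lower, beside 44.0% of all genes called. With cSNX 1 of 10 was higher and 2 were lower, 30.0% beside 6.07%, and in shEGFR-NLS 6 of 9 were lower and none was higher, 66.7% beside 41.4%. For S100A2, the called gene with the largest difference with ERL, and S100P, that with the largest with cSNX and between the lines, the genes outside the family with the most similar pattern of log2 CPM over the 15 libraries were found among 13385 genes. For S100A2 they were CLDN10 (Pearson r = 0.985), the processed pseudogene KRT8P3 (0.980) and XDH (0.976). For S100P they were SERPINB6 (0.964), GALNT2 (0.939) and CNBP (0.931). These values are a description over libraries that share group, depth and the length pattern given above.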

How the data were processed

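RNA of MDA-MB-468 cells was measured in 15 polyA libraries, grouped by their sample labels, 3 in each of 5 groups. The authors used TrimGalore for trimming, STAR for alignment to GRCh38 and featureCounts for paired-end counting without strand, and they deposited the counts per gene unscaled for 61552 genes. The labels name hg38 and DESeq2. The annotation release is not given in the sources used here, and 61399 IDs were matched to GENCODE 44 and 153 were not. Library totals were 22915676 to 35900649 counts, and replicate pairs differed by more than sampling noise (chi-square per degree of freedom 2.60 to 22.3, 15 pairs).

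Counts were analysed with edgeR 4.0.16 (limma 3.58.1, R 4.3.3), with TMM scaling, filterByExpr by group, a robust quasi-likelihood fit and Benjamini-Hochberg adjustment over all genes tested, called under 0.05. The drug comparisons used 9 libraries, the line comparison 6 and the difference of effects all 15. The scripts were tested on simulated data. CPM in the text are on a TMM scale of all 15 libraries. Promoters came from RefSeq, and no protein sequence was used here. Named genes are the 10 members, hand-written lists of further S100 genes, partners, receptors, antimicrobial genes and cell type markers, and the genes most like S100A2 and S100P. The members and lists were chosen with earlier results of these data known. Alternatives were DESeq2 1.42.0, its size factors in edgeR, no filter, at least 10 counts in every library, the fit of all 15 libraries or of 2 groups, a replicate block, a threshold of 0.01, leaving out each replicate, and transcript length for levels. Length and GC offsets were chosen after seeing the data.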

Additional observations from a re-analysis of the deposited data

How the results depend on the processing

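The count of S100 genes called in cSNX vs. EGF was 2, and it was 1 at an adjusted p under 0.01 (S100P). Without each replicate in turn the counts ranged from 1 to 3 for cSNX vs. EGF, 5 to 7 for ERL vs. EGF, 8 to 9 for shEGFR-NLS vs. shEGFR-WT, 7 to 8 for cSNX vs. ERL and 5 to 7 for the difference of effects. Under the other alternatives, including DESeq2, these 4 latter counts stayed within 1.5 times the reported ones. Of 830 recomputed log2 fold changes, 777 kept their direction and their side of the threshold, 21 lost a call, 17 gained a call and 15 changed sign. The sign changed only for genes without a call. S100A8 in cSNX vs. ERL was at 0.03 with length and GC offsets, with or without the replicate block, and ranged from -0.11 to 0.027 without each replicate. Ranges without each replicate that crossed 0 in cSNX vs. EGF were -0.004 to 0.15 for S100A2, -0.08 to 0.026 for S100A4, -0.042 to 0.12 for S100A7, -0.04 to 0.15 for S100A9 and -0.025 to 0.10 for S100A14. S100A8 in ERL vs. EGF ranged from -0.21 to 0.019 and S100A4 in cSNX vs. ERL from -0.01 to 0.10. The cause was not tested.

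Deviations of same-numbered replicates correlated at -0.229 to 0.284 over 9 pairs of drug libraries, beside -0.376 to 0.429 over 18 pairs with different numbers. For line libraries the values were -0.107 to -0.015 over 3 pairs, beside -0.063 to 0.123 over 6. Same-numbered pairs did not stand above the others, so the numbers were not taken as a pairing. With the replicate number as a block, 7 genes were called in ERL vs. EGF, 2 in cSNX vs. EGF, 9 in shEGFR-NLS vs. shEGFR-WT, 7 in cSNX vs. ERL and 7 in the difference of effects. Scaled by the longest transcript in place of all exons, the level with EGF was 58.5 CPM per kb for S100A2, 317 for S100A4, 1495 for S100A6, 302 for S100A8, 919 for S100A10 and 1082 for S100A11, so the order of levels depends on the length used. The least counted gene had 550 counts in its lowest library, and the number of libraries, 3 per group, limits the precision.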
